A study of Mus musculus with 4 samples.

Results

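The mitochondrial ribosomal protein genes were taken as every gene whose symbol begins with Mrpl or Mrps followed by a digit, with pseudogene symbols containing -ps left out, which gave 76 of the 23284 gene symbols in the expression tables. The Mrpl genes are named for the large and the Mrps genes for the small subunit of the ribosome inside mitochondria. They were compared between donor cells recovered from mice conditioned with 5-FU (5-fluorouracil, a pyrimidine analogue that kills dividing cells) and donor cells recovered from unconditioned mice. Donor cells were LSK cells (lineage-negative, Sca1-positive, c-Kit-positive marrow cells, the gate that holds stem cells and multipotent progenitors) from CAG-EGFP mice, which carry EGFP under a ubiquitous promoter. Wild-type recipients received them either 2 days after 200 mg/kg 5-FU given intravenously or with no conditioning, and EGFP-positive marrow cells were sorted again 24 h after transplantation. The drug was thus given to the recipients of the 5-FU group before the donor cells arrived. RNA-seq was available for 2 libraries from 5-FU recipients and 2 libraries from control recipients.

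The mitochondrial ribosome translates the mRNAs of the mitochondrial genome, which encode core membrane subunits of the respiratory chain and of ATP synthase. Its rRNAs are transcribed from mitochondrial DNA, whereas its proteins are encoded by nuclear genes, made in the cytosol and imported. Some of these proteins belong to families shared with bacterial ribosomes, and others are found in mitochondria alone. Quiescent blood stem cells are known to depend little on oxidative phosphorylation, and mitochondrial respiration increases when they divide and differentiate.

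Levels are given in FPKM, fragment numbers scaled to the length of the transcript and to the size of the library. Changes are given as the log2 fold change of FPKM + 1 in 5-FU over control recipients, and a gene is said to be higher or lower at an adjusted p under 0.05, by limma with Benjamini-Hochberg adjustment over the 11496 genes that reached 1 FPKM in at least 2 libraries. All 76 genes passed that filter. With 2 libraries against 2, an exact permutation test of 1 gene cannot go below p = 0.333, and the limma test rests on 2 residual degrees of freedom per gene and on the variance shared across genes. The labels call the 2 libraries of a group biological replicates and do not say whether each came from a separate recipient.

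Promoters of 67 of the 76 genes were found in RefSeq (GRCm38.p6), as windows from 250 bases before to 50 bases after the annotated start site. They are shown because the genes are spread over 17 chromosomes, so that the sequence before each start site is where common elements can be looked for. The windows shown are picked examples and do not stand for the list. Of the genes with an E-box, Mrpl20, which was higher, and Mrpl36, which did not pass, are not shown. Of the 3 genes shown first, all of which were higher in 5-FU recipients, the window of Mrpl2 lies at chr17:46645971-46646270 on the plus strand, that of Mrpl37 at chr4:107066817-107067116 on the minus strand and that of Mrps18c at chr5:100798509-100798808 on the plus strand. Mrpl2 has 3 overlapping windows, all with the E-box, and the first is shown. Capitals mark the E-box CACGTG, the element bound by MYC with MAX and by related factors, at 131, 162 and 163 bases before the start sites of Mrpl2, Mrpl37 and Mrps18c, counted in the windows shown. Capitals also mark AAGATGGC, a YY1-type element, 26 bases after the start site of Mrpl37, and CCGGAAG, the core bound by ETS factors including GABP, which stands on the other strand 1 base after the E-box of Mrps18c.
Mrpl2: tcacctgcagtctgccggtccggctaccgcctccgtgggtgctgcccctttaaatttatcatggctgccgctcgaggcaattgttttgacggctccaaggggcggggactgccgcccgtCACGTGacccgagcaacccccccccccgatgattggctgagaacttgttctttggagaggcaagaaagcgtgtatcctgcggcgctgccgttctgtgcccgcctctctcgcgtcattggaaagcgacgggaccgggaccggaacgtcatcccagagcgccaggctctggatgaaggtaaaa
Mrpl37: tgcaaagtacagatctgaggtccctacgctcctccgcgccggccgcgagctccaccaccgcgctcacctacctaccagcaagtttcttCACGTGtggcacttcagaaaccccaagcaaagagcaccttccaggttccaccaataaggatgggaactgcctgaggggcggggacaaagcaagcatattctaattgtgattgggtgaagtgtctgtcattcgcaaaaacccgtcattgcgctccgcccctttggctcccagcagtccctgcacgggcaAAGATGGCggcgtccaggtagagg
Mrps18c: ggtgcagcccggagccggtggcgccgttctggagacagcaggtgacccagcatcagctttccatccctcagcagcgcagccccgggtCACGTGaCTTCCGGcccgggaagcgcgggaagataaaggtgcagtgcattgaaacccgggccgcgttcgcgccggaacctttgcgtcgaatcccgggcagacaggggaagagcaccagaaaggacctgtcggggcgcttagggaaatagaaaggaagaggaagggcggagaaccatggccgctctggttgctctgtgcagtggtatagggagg

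The next 2 windows are those of Mrps18b, at chr17:35916391-35916690 on the minus strand, and Mrpl9, at chr3:94443086-94443385 on the plus strand, genes that did not pass the test. Their capitals mark GCATGCGC, the element bound by NRF1 (nuclear respiratory factor 1), which occurred 223 bases before and 28 bases after the start site of Mrps18b, and as 2 overlapping matches on opposite strands 28 and 26 bases before that of Mrpl9. Mrps18b also held CCGGAAG 43 bases after its start site.
Mrps18b: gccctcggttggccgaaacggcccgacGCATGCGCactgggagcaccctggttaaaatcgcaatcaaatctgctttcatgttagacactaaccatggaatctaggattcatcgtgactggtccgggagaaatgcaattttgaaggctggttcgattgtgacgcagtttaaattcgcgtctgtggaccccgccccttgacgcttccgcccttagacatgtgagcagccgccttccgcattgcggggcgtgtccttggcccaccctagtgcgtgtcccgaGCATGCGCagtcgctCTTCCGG
Mrpl9: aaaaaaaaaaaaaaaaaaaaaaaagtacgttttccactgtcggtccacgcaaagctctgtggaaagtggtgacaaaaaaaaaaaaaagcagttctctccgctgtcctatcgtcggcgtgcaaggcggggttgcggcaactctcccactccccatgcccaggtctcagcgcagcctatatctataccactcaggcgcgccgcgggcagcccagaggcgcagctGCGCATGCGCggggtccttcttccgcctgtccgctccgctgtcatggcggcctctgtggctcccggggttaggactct

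The window of Mrps11, at chr7:78782881-78783180 on the plus strand, is shown because the start site lies 42 bases from that of another member, Mrpl46, which is read in the opposite direction. Its capitals mark AAGATGGC on the other strand, 107 bases before the start site.
Mrps11: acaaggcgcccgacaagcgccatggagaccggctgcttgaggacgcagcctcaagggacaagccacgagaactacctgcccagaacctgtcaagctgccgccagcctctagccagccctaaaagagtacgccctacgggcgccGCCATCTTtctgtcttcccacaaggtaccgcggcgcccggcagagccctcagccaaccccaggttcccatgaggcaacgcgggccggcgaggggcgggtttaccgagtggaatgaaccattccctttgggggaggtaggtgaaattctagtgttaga

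Counted over both strands and once per gene, CCGGAAG was present in 24 of the 67 promoters (35.8%), against 9.93% of the 27025 genes with a promoter window. AAGATGGC was present in 12 (17.9%, against 3.19% of all genes) and GCATGCGC in 8 (11.9%, against 3.05%). The E-box was present in 5 (7.46%), against 8.09% of all genes, and TATAAA in 5 (7.46%), against 15.7%. Matches of different words were allowed to overlap, and each word was counted on its own. Promoters of the mitochondrial ribosomal protein genes were also richer in CpG dinucleotides, with a median of 21 per window against 7 over all windows, and in G and C, with a median of 58.3% against 52.7%. Among cytosolic ribosomal protein genes, 40.3% of 62 promoters held CCGGAAG, 8.07% AAGATGGC and 4.84% GCATGCGC. These are counts of letters, and no binding was measured.

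A larger share of the mitochondrial ribosomal protein genes than of all tested genes was higher in cells from 5-FU recipients, and none was lower. Of the 76 genes, 26 were higher (34.2%, where 8.23% of all tested genes were higher), 50 did not pass and none was lower (4.67% of all tested genes were lower); 51 had an unadjusted p under 0.05, each of them with a positive change. The log2 fold change was above 0 for 75 genes, and the exception was Mrpl9 at −0.03. The median was 0.69, with the middle of the list between 0.45 and 0.90 and a range of −0.03 to 1.44, while the median of all tested genes was −0.01. Both 5-FU libraries were above both control libraries for 67 of the 76 genes, which held for 31.4% of all tested genes, and none had both below, as 30.7% of all tested genes did. The 9 genes whose groups overlapped were Mrpl3, Mrpl9, Mrpl10, Mrpl27, Mrpl35, Mrpl46, Mrpl48, Mrpl49 and Mrps21. Summed over the 76 genes, the level was 5775 and 7877 FPKM in the 5-FU libraries against 4208 and 4176 FPKM in the control libraries, or 0.851% and 1.03% of all FPKM in 5-FU recipients against 0.618% and 0.616% in control recipients. In bulk RNA, fewer cells of a type and less RNA per cell cannot be told apart.

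**Figure D1:**
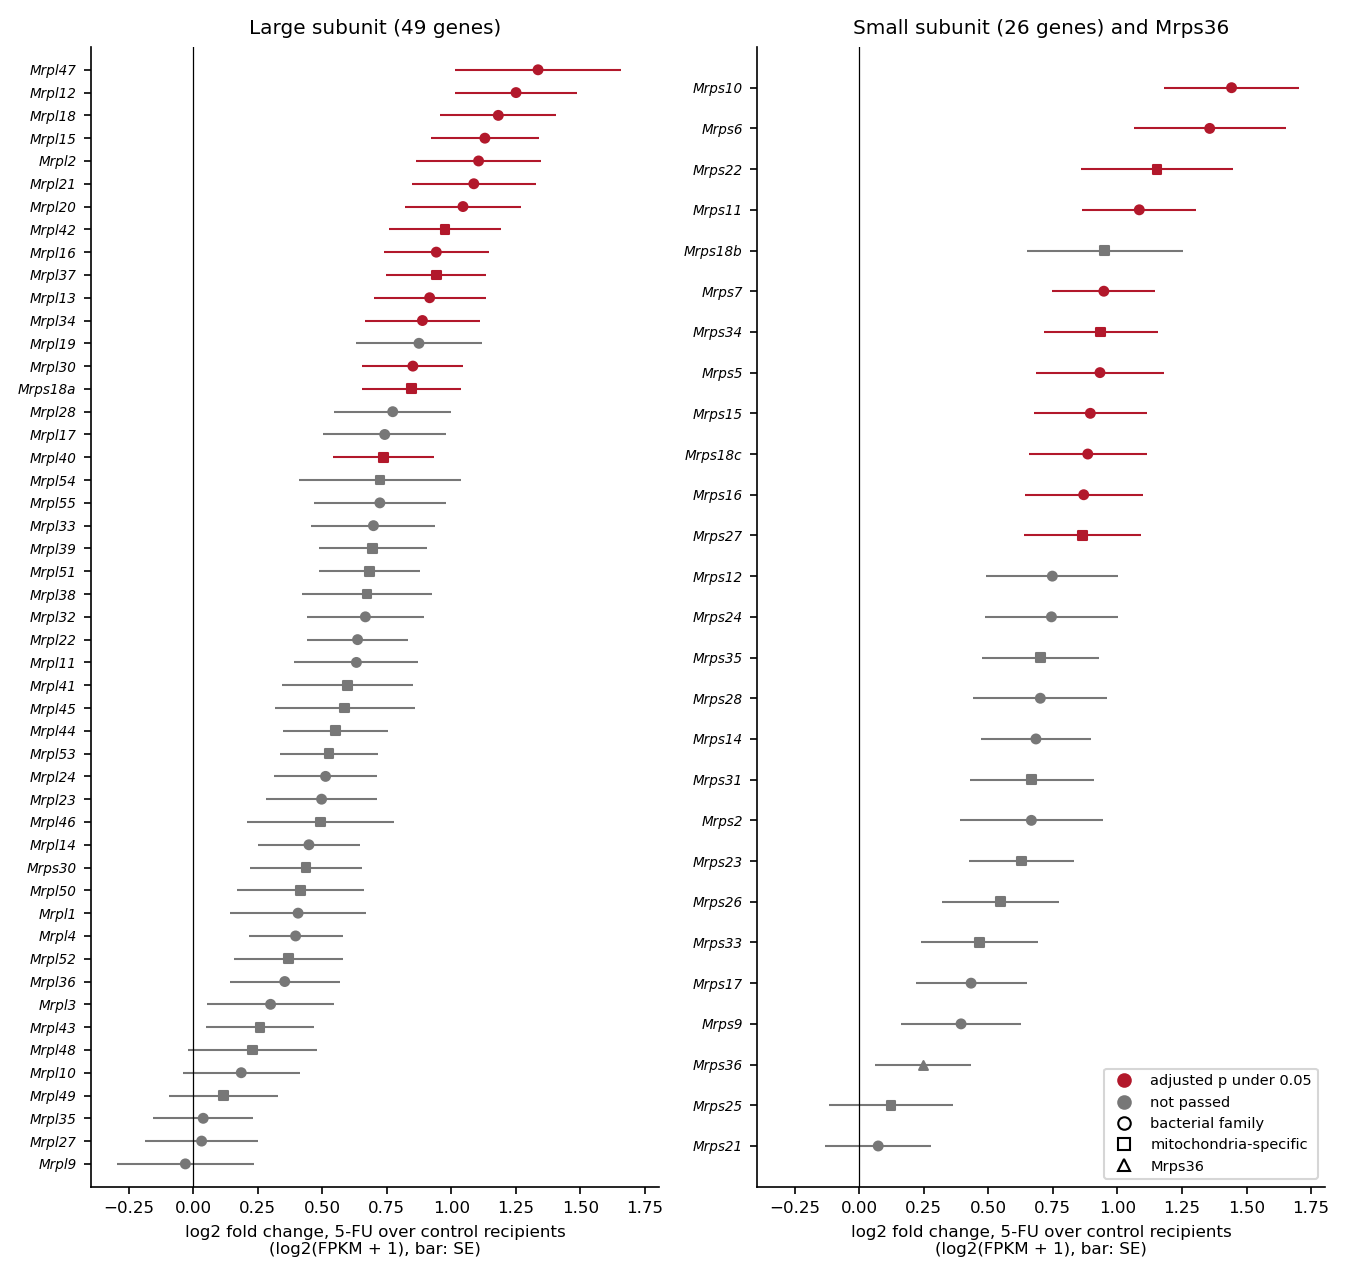
Log2 fold change of FPKM + 1 in 5-FU over control recipients for the 49 large subunit genes (left) and for the 26 small subunit genes with Mrps36 (right), with bars for the SE of the fit to 2 libraries per group. Red marks an adjusted p under 0.05. Circles mark bacterial families, squares mitochondria-specific proteins (Mrps18a and Mrps18b among them) and the triangle Mrps36. Mrpl9 is the gene below 0.

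The number of genes that passed depended on the model, and their direction much less. With limma's variance prior held constant over expression levels, 4 of 76 were higher (5.26%), close to the 4.77% of all genes higher in that fit. With no filter on low values 0 were higher, with 36 at an unadjusted p under 0.05, and 35 of 23284 genes were higher in all. Without control replicate 1, 6 genes were higher, 5 of them among the 26, where 4.55% of all tested genes were higher. Without control replicate 2, 4 were higher (5.26%), near the 4.01% of all tested genes. Without 5-FU replicate 1, 64 were higher (84.2%), and the share of all tested genes was itself 20.4%. In each of these 5 fits at least 73 of 76 changes were above 0 and none passed as lower. Of the 26 genes, Mrps10 passed in 13 of 14 alternatives, failing where no filter was set, and Mrpl12 in 12.

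**Figure D2:**
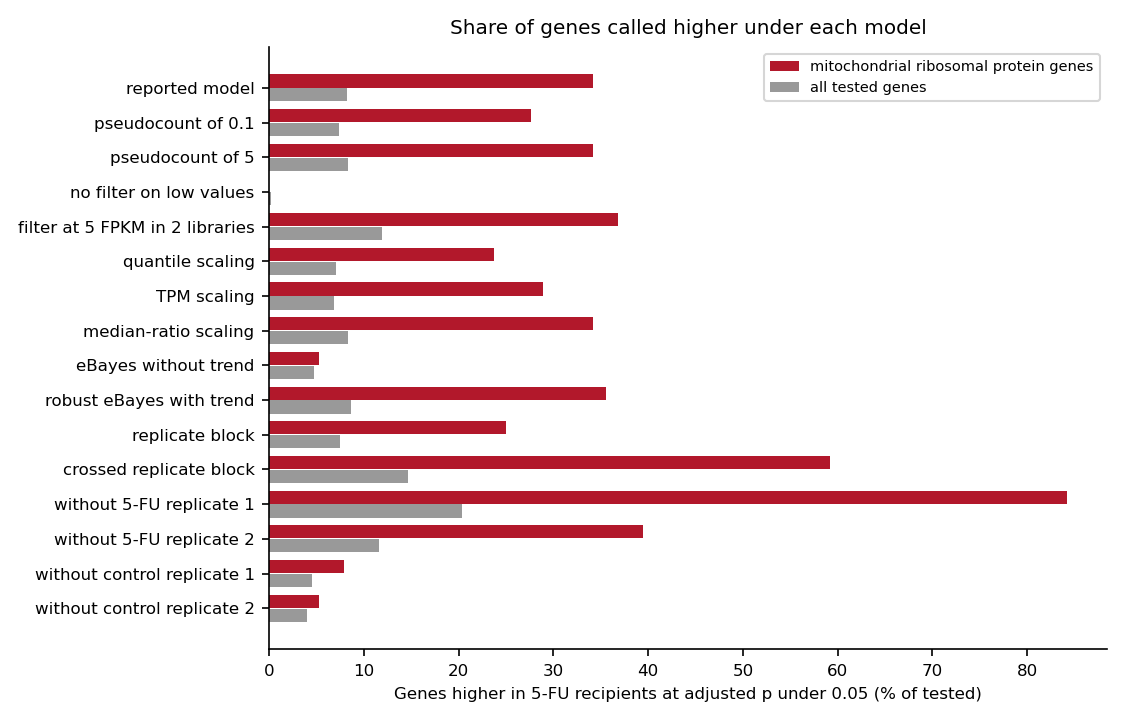
Percent of tested genes higher in 5-FU than in control recipients at an adjusted p under 0.05 (horizontal axis) under the reported model and each alternative (rows), for the mitochondrial ribosomal protein genes (red) and for all tested genes (grey). The red bar is 34.2% in the reported model and 5.26% without the trend of variance on expression or without control replicate 2, and no gene of the list passed with no filter.

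The increase was found in both subunits. Of 49 genes whose proteins sit in the large subunit, 15 were higher, with a median of 0.67, and of 26 small subunit genes 11 were higher, with a median of 0.75. Mrps18a and Mrps30 were counted with the large subunit, where their proteins are found despite their names. Among the 46 genes of families shared with bacteria 19 were higher (median 0.74), and among the 29 mitochondria-specific genes 7 were higher (median 0.63). The difference between these classes was not tested. Mrps18a and Mrps18b were counted as mitochondria-specific and Mrps18c with the families shared with bacteria, although all of them descend from the bacterial S18 protein. Without 5-FU replicate 1 the counts were 40 large and 24 small subunit genes, without control replicate 1 they were 3 and 3, and without control replicate 2 they were 1 and 3. Mrps36, whose protein is a component of the alpha-ketoglutarate dehydrogenase complex and is counted in neither subunit, had 99.2 and 103.2 FPKM in 5-FU recipients, against 90.6 and 79.96 FPKM in control recipients (log2 fold change 0.25, SE 0.19, limma adjusted p = 0.40).

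The largest increase in the small subunit was that of Mrps10, which encodes the uS10 family protein of the subunit's head (chromosome 17, 47368887 to 47381418). It had 69.8 and 111.3 FPKM in 5-FU recipients, against 28.5 and 35.6 FPKM in control recipients. The groups did not overlap (log2 fold change 1.44, SE 0.26, limma adjusted p = 0.018). In FPKM the gap between the groups was larger than that within the controls and smaller than that within the 5-FU libraries. Mrps6, of the bS6 family (chromosome 16, 92058336 to 92112227), had 39.0 and 58.6 FPKM in 5-FU, against 22.8 and 14.3 FPKM in control recipients, which did not overlap (1.36, SE 0.29, limma adjusted p = 0.027). Of its exon bases 19.9% lie in other genes, among them Slc5a3, so part of its reads cannot be assigned with certainty. Mrps22, a mitochondria-specific protein of the small subunit (chromosome 9, 98588730 to 98601679), had 24.3 and 43.4 FPKM in 5-FU, against 13.2 and 15.0 FPKM in control recipients. Its groups did not overlap, and the 5-FU libraries differed more from each other than the control libraries did (1.15, SE 0.30, limma adjusted p = 0.044). Mrps11, shown above for its promoter and chosen after its value was seen, was at 1.08 (SE 0.22, limma adjusted p = 0.024) and passed in 11 of 14 alternatives.

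In the large subunit the largest increase was that of Mrpl47, of the uL29 family near the exit of the peptide tunnel (chromosome 3, 32727497 to 32736755). It had 33.4 and 61.5 FPKM in 5-FU recipients, against 14.5 and 20.7 FPKM in control recipients, without overlap (log2 fold change 1.34, SE 0.32, limma adjusted p = 0.037). Actl6a and Ndufb5 share 24.2% of its exon bases. Mrpl12, the stalk protein that recruits translation factors to the ribosome and is also known to bind the mitochondrial RNA polymerase (chromosome 11, 120484637 to 120488754), had 174.9 and 258.1 FPKM in 5-FU, against 95.2 and 82.6 FPKM in control recipients. Both 5-FU libraries were above both controls, and in FPKM they differed from each other by more than the gap between the groups (1.25, SE 0.24, limma adjusted p = 0.020). Mrpl18, of the uL18 family that binds 5S rRNA in bacteria (chromosome 17, 12911345 to 12917787), had 193.9 and 274.0 FPKM in 5-FU, against 106.2 and 96.1 FPKM in control recipients. Other annotated genes share 13.05% of the exon bases of Mrpl12 and 10.1% of those of Mrpl18. The libraries of Mrpl18 did not overlap between the groups (1.18, SE 0.23, limma adjusted p = 0.020). Mrpl15, of the uL15 family (chromosome 1, 4773198 to 4785750), had 30.2 and 33.6 FPKM in 5-FU, against 14.2 and 13.9 FPKM in control recipients, and here the libraries of each group lay close together (1.13, SE 0.21, limma adjusted p = 0.019). Mrpl2, of the uL2 family beside the peptidyl transferase centre (chromosome 17, 46646172 to 46650132), had 32.1 and 44.5 FPKM in 5-FU, against 18.8 and 15.4 FPKM in control recipients, again without overlap (1.11, SE 0.24, limma adjusted p = 0.028).

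Of these 8 genes, Mrps10 alone passed in each of the 4 fits that left out a library. Without control replicate 1, Mrpl18, Mrpl15, Mrpl47 and Mrps22 no longer passed, with adjusted p of 0.060, 0.061, 0.076 and 0.092 by limma. Without control replicate 2, Mrpl15, Mrpl12, Mrps6, Mrpl18 and Mrpl2 no longer passed, with 0.074, 0.094, 0.097, 0.117 and 0.131. All 8 kept a positive change in those fits, between 0.75 for Mrps22 and 1.77 for Mrps10. Without the variance trend Mrps6, Mrpl2, Mrpl47 and Mrps22 did not pass (limma adjusted p = 0.056, 0.056, 0.067 and 0.074), nor did Mrpl47 and Mrps22 under quantile scaling (0.053 and 0.062).

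**Figure D3:**
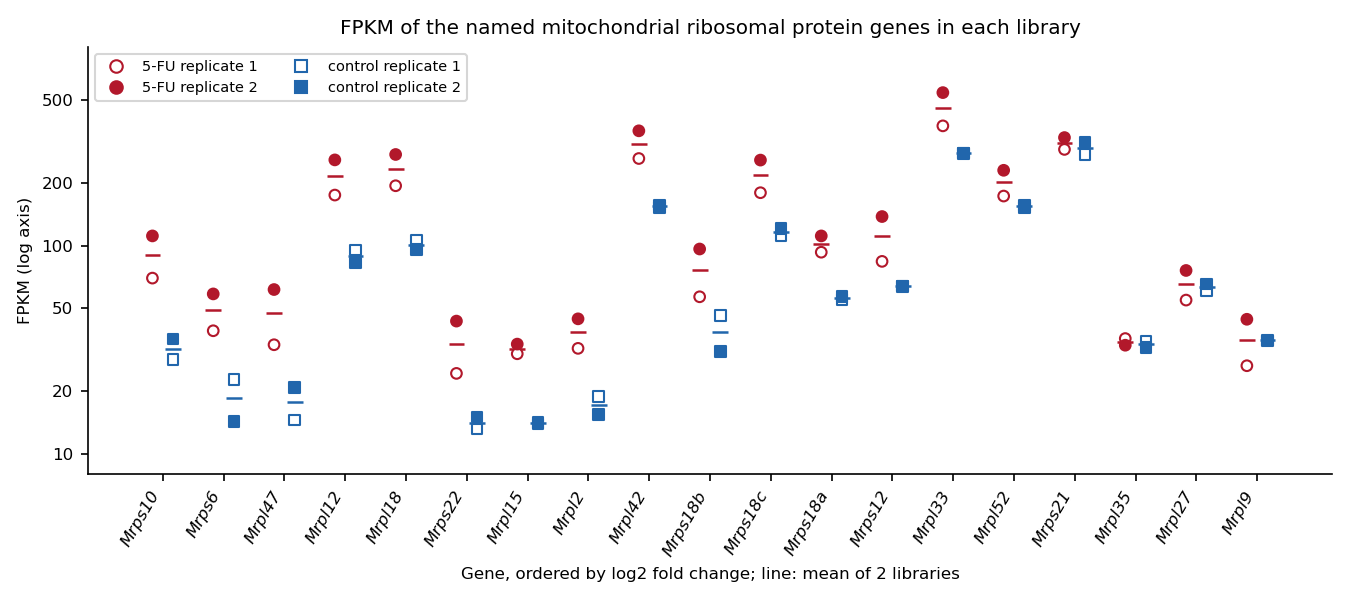
FPKM on a log axis in each library for the genes described singly, with 5-FU recipients as red circles left of control recipients as blue squares, open for replicate 1 and filled for replicate 2, and a line at each mean. From Mrps10 to Mrpl52 the 5-FU points stand above the control points, and for Mrps21, Mrpl35, Mrpl27 and Mrpl9 at the right the groups overlap.

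The most abundant members did not all follow the most changed ones. Mrpl33, of the bL33 family, had the highest mean level, with 376.1 and 543.4 FPKM in 5-FU recipients, against 279.1 and 277.3 FPKM in control recipients. The groups did not overlap, and the change did not pass (log2 fold change 0.70, SE 0.24, limma adjusted p = 0.093). Mrps21, of the bS21 family, had 289.9 and 330.5 FPKM in 5-FU, against 274.8 and 314.7 FPKM in control recipients. These ranges overlapped (0.07, SE 0.21, limma adjusted p = 0.84). Mrpl42, a mitochondria-specific protein of the large subunit, had 262.1 and 356.1 FPKM in 5-FU, against 156.9 and 152.9 FPKM in control recipients and was higher (0.98, SE 0.22, limma adjusted p = 0.030); it did not pass without control replicate 1 (0.20) or 2 (0.23). Mrpl52, also specific to mitochondria, had 173.0 and 230.1 FPKM in 5-FU, against 156.4 and 152.3 FPKM in control recipients, without overlap, and with the lower 5-FU library nearer to the controls than to the other 5-FU library (0.37, SE 0.21, limma adjusted p = 0.27).

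Besides Mrps21, 3 members had changes near 0, all in the large subunit. Mrpl27, of the bL27 family that in bacteria reaches into the peptidyl transferase centre, had 54.7 and 76.0 FPKM in 5-FU recipients, against 60.6 and 65.5 FPKM in control recipients, the controls lying between the 5-FU libraries (log2 fold change 0.03, SE 0.22). Mrpl35, of the bL35 family, had 35.8 and 33.2 FPKM in 5-FU, against 34.7 and 32.4 FPKM in control recipients, all within a narrow band (0.04, SE 0.19). Mrpl9, of the bL9 family, had 26.5 and 44.3 FPKM in 5-FU, against 34.9 and 35.1 FPKM in control recipients, and again the controls lay between the 5-FU libraries (−0.03, SE 0.27). Under quantile scaling the changes of Mrps21, Mrpl27 and Mrpl35 were −0.07, −0.07 and −0.06, so their sign is not fixed.

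The family of 3 genes descended from the bacterial S18 protein was split across both subunits. Mrps18c, whose product occupies the bacterial S18 site of the small subunit, had 179.5 and 257.6 FPKM in 5-FU recipients, against 111.2 and 121.0 FPKM in control recipients. Its groups did not overlap (log2 fold change 0.89, SE 0.23, limma adjusted p = 0.045), and it did not pass without control replicate 1 (0.29) or 2 (0.20). Mrps18a, whose product sits in the large subunit, had 93.0 and 111.3 FPKM in 5-FU, against 55.2 and 57.1 FPKM in control recipients, likewise apart (0.85, SE 0.19, limma adjusted p = 0.031), and not past the threshold without control replicate 1 (0.23) or 2 (0.20). Mrps18b, the second small subunit copy, had 56.8 and 96.3 FPKM in 5-FU, against 46.1 and 31.0 FPKM in control recipients. Its groups did not overlap, and the change did not pass (0.95, SE 0.30, limma adjusted p = 0.075). Other annotated genes share 23.2% of the exon bases of Mrps18c and 30.5% of those of Mrps18b. Neither Mrps18a nor Mrps18c passed without the variance trend (limma adjusted p = 0.071 and 0.087). Mrps12, of the uS12 family at the decoding centre, had 84.0 and 137.9 FPKM in 5-FU, against 64.0 and 63.4 FPKM in control recipients, without overlap and not past the threshold (0.75, SE 0.26, limma adjusted p = 0.092).

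The 5-FU libraries differed from each other across the list. In 72 of the 76 genes the level in 5-FU replicate 2 was above that in replicate 1 (94.7%, against 51.9% of all tested genes), with a median log2 difference of 0.44. This was not particular to the list. The share was 98.8% for cytosolic ribosomal protein genes, 93.6% for nuclear oxidative phosphorylation genes and 96.4% for mitochondrial protein import genes. It was lower for mitoribosome assembly (72%), mitochondrial tRNA charging (75%) and mitochondrial DNA genes (64.3%). Between the controls, replicate 2 was the higher for 34 of the 76 genes (44.7%, against 49.96% of all tested genes). Set alone against the controls, 5-FU replicate 2 gave a median log2 fold change of 0.90 over the list and 64 higher genes, in a fit that called 20.4% of all tested genes higher. For 5-FU replicate 1 alone the median was 0.49, with 70 of 76 genes above 0 and 30 higher, and 11.6% of all tested genes were higher.

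Markers of other cells also differed between the groups, and their changes between the 5-FU libraries were not alike. Macrophage markers, 18 genes including Vcam1, C1qb and Csf1r, summed to 22229 and 11699 FPKM in 5-FU replicates 1 and 2, against 25818 and 30111 FPKM in control replicates 1 and 2. All 18 were lower in 5-FU replicate 2 than in replicate 1; 4 of them were lower in 5-FU recipients and none was higher (median −0.96). Of 13 granulocyte markers 7 were lower and 1 higher, and of 10 tested erythroid markers 9 were lower. Of 8 tested B cell markers 5 were lower, and of 20 genes that respond to tissue handling 12 were lower. Over all tested genes 4.67% were lower and 8.23% higher. Summed granulocyte markers came to 3444 and 3309 FPKM in 5-FU against 12243 and 9786 FPKM in control recipients, and summed erythroid markers to 76.2 and 126.0 FPKM in 5-FU against 1296 and 1801 FPKM in control recipients. No marker of these lists was at 0 in all 4 libraries. Kit, which marks the sorted donor cells, was present at 66.2 and 69.5 FPKM in 5-FU and 102.8 and 65.5 FPKM in control recipients. Of 13 tested stem and progenitor markers 1, Ly6a, was higher (7.69%), near the 8.23% of all tested genes. Stem and progenitor markers summed to 741 and 938 FPKM in 5-FU and 857 and 791 FPKM in control recipients. Of the 13 tested, 12 were higher in level in 5-FU replicate 2 than in replicate 1. The same held for 6 of 10 erythroid, 4 of 13 granulocyte and 0 of 8 B cell markers. The part of these differences in the change of the mitochondrial ribosomal protein genes was not tested.

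Other nuclear genes for ribosomes and respiration also had medians above 0. Where 8.23% of all tested genes were higher and 4.67% lower, 3 of 81 tested genes of the cytosolic ribosome were higher (3.70%). None was lower, the median was 0.55 and 79 were above 0. Of 78 tested nuclear genes of oxidative phosphorylation 11 were higher (14.1%) and none lower, with a median of 0.52 and 75 above 0. The median SE was 0.29 in the cytosolic list, 0.23 in the oxidative phosphorylation list and 0.23 for the mitochondrial ribosomal protein genes. The part of the SE in the numbers of calls was not tested. Cytosolic ribosomal protein genes summed to 13.4% and 17.4% of all FPKM in 5-FU recipients, against 12.02% and 10.1% in control recipients. The counts of higher genes in both lists shifted with each library left out, and the share of all tested genes that were higher shifted too. The differences between the lists were not tested.

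**Figure D4:**
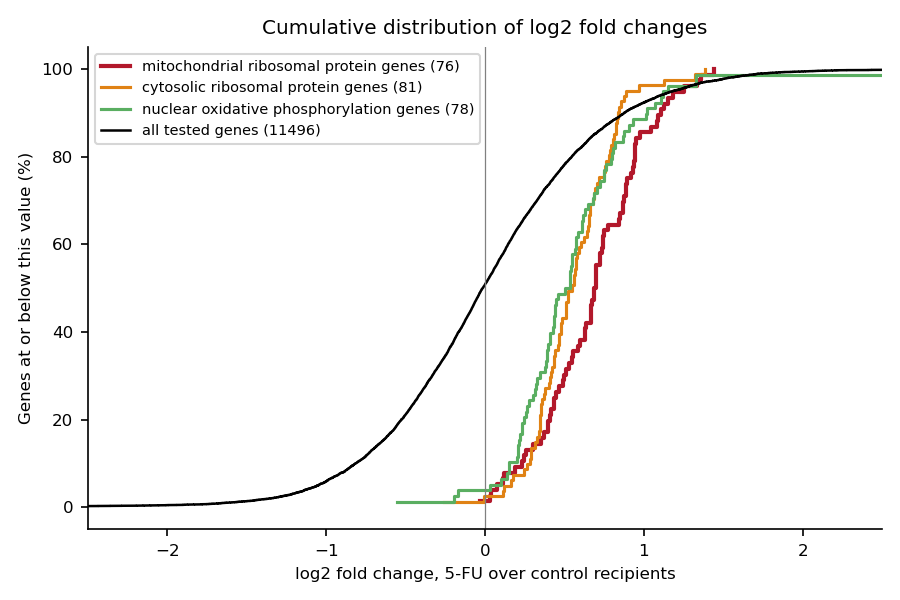
Cumulative share of genes (vertical axis, percent) at or below each log2 fold change of FPKM + 1 in 5-FU over control recipients. The curves of the mitochondrial ribosomal, cytosolic ribosomal and oxidative phosphorylation genes lie to the right of the curve of all tested genes, with medians of 0.69, 0.55, 0.52 and −0.01.

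Further genes needed to build and run the mitochondrial ribosome were counted by role. Of 7 mitochondrial ribosomal proteins that carry other symbols, 3 were higher, 4 did not pass and the median was 0.85. Ptcd3, a pentatricopeptide repeat protein of the small subunit, had 36.9 and 59.2 FPKM in 5-FU, against 19.2 and 17.5 FPKM in control recipients (log2 fold change 1.31, SE 0.26, limma adjusted p = 0.023). Gadd45gip1, a large subunit protein near the tunnel exit, was at 1.04 (SE 0.23, limma adjusted p = 0.028) and Mrp63, also of the large subunit, at 0.91 (SE 0.23, limma adjusted p = 0.041). None of these 3 had overlapping groups. Without control replicate 2, Gadd45gip1 and Mrp63 no longer passed (limma adjusted p = 0.18 and 0.21), and Mrp63 did not pass without control replicate 1 (0.15).

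In the next 4 lists the share of higher genes, from 4% to 10%, was near the 8.23% of all tested genes, so the genes named in them are given as single values and not as a result about the lists. Of 25 assembly factors and rRNA-modifying enzymes 1 was higher, and the median was 0.30. That gene was Rnmtl1, a methyltransferase of the mitochondrial large subunit rRNA, with 20.2 and 23.5 FPKM in 5-FU, against 8.82 and 7.31 FPKM in control recipients (1.33, SE 0.24, limma adjusted p = 0.018); it did not pass without control replicate 2 (0.058). Noa1, a GTPase of small subunit assembly, was at 0.74 (limma adjusted p = 0.054) and Wbscr16 at 1.04 (0.061), neither past the threshold. Of 15 translation factors 1 was higher, with a median of 0.50. It was Tsfm, the exchange factor of elongation factor Tu, with 50.2 and 71.7 FPKM in 5-FU, against 32.1 and 32.6 FPKM in control recipients (0.87, SE 0.23, limma adjusted p = 0.046), not past the threshold without control replicate 1 (0.19) or 2 (0.18). Gfm1, elongation factor G, was at 0.71 (0.061) and Lrpprc, which stabilises mitochondrial mRNAs, at 0.90 (0.064). Of 20 genes for charging mitochondrial tRNAs 2 were higher, with a median of 0.27. They were the tyrosyl and methionyl tRNA synthetase genes Yars2 at 1.30 (SE 0.23, limma adjusted p = 0.017) and Mars2 at 1.36 (SE 0.35, limma adjusted p = 0.044), while Aars2 at 1.32 did not pass (0.063). Yars2 did not pass without control replicate 2 (0.072), nor Mars2 without control replicate 1 (0.17).

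Of 14 genes for copying and transcribing mitochondrial DNA 1 was higher, with a median of 0.36. Lig3, the mitochondrial DNA ligase, had 10.8 and 12.5 FPKM in 5-FU, against 5.94 and 4.04 FPKM in control recipients (1.09, SE 0.28, limma adjusted p = 0.046), and it did not pass without control replicate 1 (0.055) or 2 (0.28). Peo1, the replicative helicase, was at 1.06 (0.058) and Tk2, mitochondrial thymidine kinase, at −0.95 (0.095). Of 28 genes of protein import 16 were higher (57.1%) and none lower, with a median of 0.89. Timm8a1, a chaperone of the intermembrane space, had 81.9 and 138.9 FPKM in 5-FU, against 22.7 and 21.6 FPKM in control recipients (2.22, SE 0.27, limma adjusted p = 0.0085). Tomm40, the channel of the outer membrane, had 74.9 and 92.0 FPKM in 5-FU, against 25.6 and 25.7 FPKM in control recipients (1.66, SE 0.20, limma adjusted p = 0.0085), and Hspd1, the matrix chaperonin, was at 1.54 (SE 0.19, limma adjusted p = 0.0092). The groups of all 3 were far apart, and each passed in all 4 fits that left out a library. The count for import was 25 without 5-FU replicate 1, 8 without control replicate 1 and 7 without control replicate 2.

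**Figure D5:**
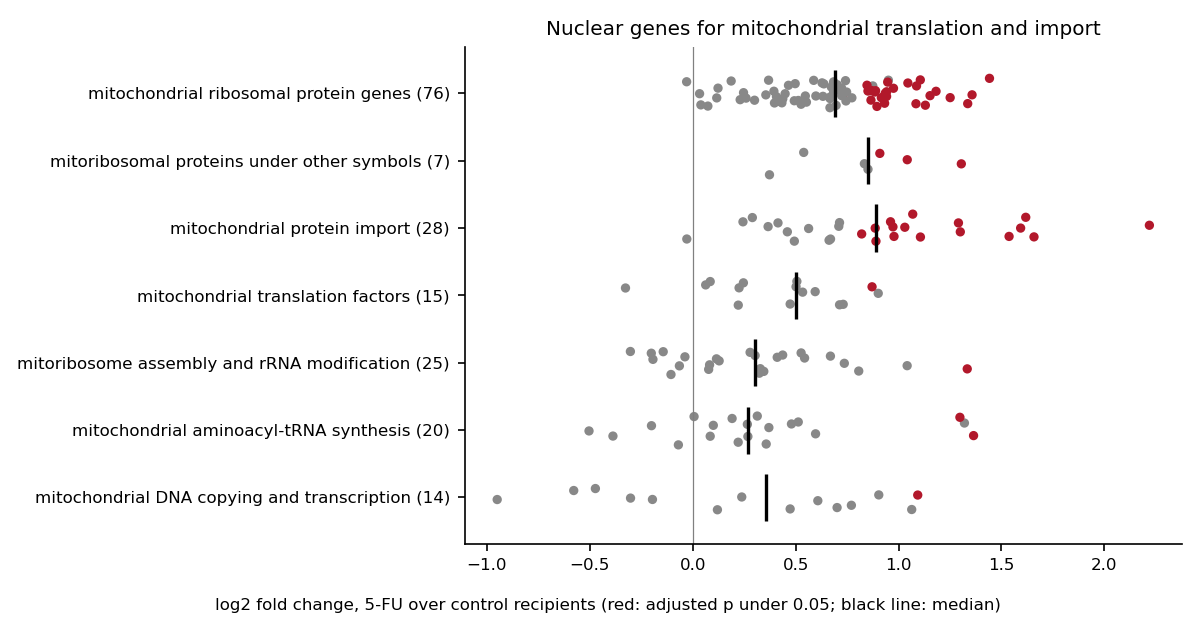
Log2 fold change of FPKM + 1 in 5-FU over control recipients for each tested gene of 7 lists (rows, with the number of genes), where red marks an adjusted p under 0.05 and the black line the list's median. Medians run from 0.89 for protein import and 0.69 for the 76 mitochondrial ribosomal protein genes to 0.27 for tRNA charging.

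Leaving out 5-FU replicate 1 raised the counts in the lists of other ribosomal proteins, assembly factors, translation factors, tRNA charging and mitochondrial DNA. In that fit the share of all tested genes that were higher rose as well. Mrp63, Tsfm, Mars2 and Lig3 did not pass under quantile scaling or without the variance trend, and Gadd45gip1 did not pass without the trend.

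Of 9 tested regulators of nuclear genes for mitochondria 2 were higher (22.2%, against 8.23% of all tested genes) and none lower. Myc, the E-box factor, had 135.8 and 214.5 FPKM in 5-FU, against 66.2 and 62.4 FPKM in control recipients (1.40, SE 0.25, limma adjusted p = 0.017). Pprc1, a growth-regulated coactivator of NRF1, had 19.1 and 25.4 FPKM in 5-FU, against 7.52 and 10.1 FPKM in control recipients (1.24, SE 0.26, limma adjusted p = 0.026), and did not pass without control replicate 1 (0.11). Tfam, which packages and transcribes mitochondrial DNA, had 15.2 and 14.1 FPKM in 5-FU, against 9.12 and 9.38 FPKM in control recipients (0.61, SE 0.23, limma adjusted p = 0.12). Nrf1 was at 0.52, the ETS factor gene Gabpa at −0.17 and Yy1 at 0.30, none past the threshold and chosen after their values were seen.

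Set against the promoters shown above, the E-box was found in 4 of the 23 promoters of genes that were higher (Mrpl2, Mrpl20, Mrpl37 and Mrps18c) and in 1 of the 44 of genes that did not pass (Mrpl36). The NRF1-type GCATGCGC was found in 0 of those 23 and in 8 of those 44 (Mrpl9, Mrpl10, Mrpl17, Mrpl22, Mrpl32, Mrpl33, Mrpl39 and Mrps18b). CCGGAAG was found in 8 of the 23 and 16 of the 44, and AAGATGGC in 6 of each. These counts were not tested, since they were made after the calls were known, and the calls themselves depend on the model.

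Many of the genes begin beside a neighbour read in the other direction. Of the 67 genes with a promoter window, 22 (32.8%) had such a start site within 500 bases, against 10.9% of all genes with a window. The neighbour of Mrpl43, Twnk, is listed under its older symbol Peo1 and was left out of the counts that follow. It was at 1.06 and did not pass (limma adjusted p = 0.058). Of the 21 other neighbours, all of them tested, 3 were higher and none was lower, with a median log2 fold change of 0.30. Over all tested genes 8.23% were higher and 4.67% lower. The 3 were Tcp1, Eme1 and Mrps11, which is itself a member. The neighbours named here were chosen after their values were seen. Tcp1, a subunit of the cytosolic chaperonin 238 bases from Mrpl18, was at 1.35 beside 1.18 for Mrpl18, and was the 1 higher neighbour among 12 beside genes that had risen. Eme1, an endonuclease subunit 48 bases from Mrpl27, was at 1.36 beside 0.03 for Mrpl27. The paired members Mrps11 and Mrpl46 were at 1.08 and 0.49 (limma adjusted p = 0.024 and 0.27). As the library kit does not mark the strand, reads in stretches where such a pair overlaps cannot be assigned to either gene with certainty.

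Overlap with other genes touched part of the list. Of the 76 genes, 52 share under 10% of their exon bases and of their 75-base words with other annotated genes (GENCODE, GRCm38), and 18 of these were higher, with a median of 0.70. Of the other 24 genes 8 were higher, with a median of 0.58. The worth of 1 read in a transcript of 1 kilobase was taken as the median of the values inside a fixed range. That range bounds the result, so the read numbers are rough estimates and not measurements. The worth came to 0.114 and 0.107 FPKM in 5-FU recipients and 0.139 and 0.133 FPKM in control recipients. By this estimate the median member had about 447 and 662 reads in 5-FU and 273 and 293 reads in control recipients. The lowest member in each library had about 62.0 and 72.8 reads in 5-FU and 46.2 and 46.4 reads in control recipients. Across the whole series, library sums were 678270 and 762107 FPKM in 5-FU recipients and 680412 and 678222 FPKM in control recipients.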

How the data were processed

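Donor-derived marrow cells of 5-FU and control recipients were profiled as 2 libraries per group with a low-input cDNA kit and 75-base single-end reads, per the labels' protocols. The authors deposited 1 table of FPKM per library. TopHat2 2.0.13, Bowtie2 2.2.3, SAMtools 0.1.19, Cuffnorm 2.2.1 and the build mm10 are named in the submitters' processing notes. No source at hand states the library scaling or the gene annotation. Headers of the 5-FU tables name another day than the file names, and samples were grouped by the labels.

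FPKM + 1 was taken to log2 and fitted with limma 3.58.1 in R 4.3.3 (group term only, 4 libraries, empirical Bayes with an expression trend, 2 residual and 5.62 prior degrees of freedom). Genes at 1 FPKM in at least 2 libraries were tested, two-sided, with Benjamini-Hochberg adjustment over all of them and a threshold of 0.05. The code was tested on simulated data. The members, lists and tests were chosen with earlier results of these data known. Members described singly were the 8 of largest change past the threshold, the 4 of highest mean, those below 0, the 4 of smallest change, the Mrps18 family, Mrpl12 and Mrps12, and in each pathway list the 3 genes of smallest p. Reads per gene were estimated from small FPKM values of long genes with a single transcript (at least 2500 bases). Only length-scaled values inside a fixed range were used, and their median was taken, so the range bounds the estimate. Alternatives covered the pseudocount, filter, scaling, variance model, a replicate block and each library left out. The replicate numbers are not stated to pair the samples.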

Additional observations from a re-analysis of the deposited data

How the results depend on the processing

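No member passed as lower in any of the 15 alternatives, and the median log2 fold change of the 76 genes, 0.69, lay between 0.49 and 0.90 when libraries were left out in turn. The number that passed moved more. With no filter on low values, 35 genes were higher, 64 lower and 0 members higher. Without the variance trend, 548 genes were higher, 299 lower and 4 members higher. Leaving out 1 library gave 448 to 2294 higher genes, 190 to 2057 lower genes and 4 to 64 higher members; the lone sample of a group is then assumed to vary like the others. The replicate block, for numbers that are not stated to pair the samples, gave 19 higher members, with 855 genes higher and 539 lower. A crossed pairing was added after seeing the data, because the deviations of same-numbered libraries had a weak negative correlation across genes (r = −0.16). The crossed pairing gave 1686 higher and 1365 lower genes and 45 higher members. The sign of 7 members changed in at least 1 setting. Mrpl3, Mrpl10 and Mrpl48 were below 0 without 5-FU replicate 2 alone, at −0.024, −0.036 and −0.078. Under quantile scaling Mrps21 was at −0.071, Mrpl27 at −0.074 and Mrpl35 at −0.064. Under TPM scaling, which moves the median of all genes to −0.09, they were at −0.0081, −0.048 and −0.040. With 1 library left out Mrps21 ranged from −0.024 to 0.17, Mrpl27 from −0.20 to 0.27, Mrpl35 from −0.012 to 0.091 and Mrpl9 from −0.39 to 0.33. The cause of these shifts was not tested. With 2 libraries per group, the error of each change rests largely on the variance shared across genes.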
